A study of Mus musculus with 2 samples.

Results

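The chemokine ligand and receptor genes of the mouse kidney were taken as the genes whose symbol is Ccl, Cxcl, Cx3cl, Xcl, Ccr, Cxcr, Cx3cr, Xcr or Ackr followed by a digit. The rule found 44 of the 20002 genes, 29 ligands and 15 receptors. The RNA-seq compared a kidney library of Reg-2 CKO mice with one of control mice, which addresses what changes in the kidney when Regnase-2 is lowered. Both groups were C57BL/6J mice that received an AAV9 vector by tail vein at 11 weeks of age. In the Reg-2 CKO group the vector carried an shRNA against Regnase-2, an RNA-degrading protein of the Zc3h12 family. The control vector is called empty in one place of the methods and a control shRNA in another. The age at harvest is given as 14 weeks for the sequencing and as 16 weeks in the methods of the injection. The CKO mice are thus a knockdown by a virus that prefers proximal tubule cells, without a deletion in the genome, while the RNA came from whole kidney with all its cell types. There was 1 library in each group, and the methods do not say if several mice were pooled, so no difference given here has a replicate check.

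Reads here means the deposited value minus the floor of its column, which was 34 for the control and 50 for CKO. The control library held 38851231 such reads and the CKO library 43588721. Folds and log2 ratios used CKO reads scaled by 0.667, the median gene ratio of control to CKO. Log2 ratios had 1 read added to both sides and folds had none. Zc3h12b (gene ID 547176), the gene of Regnase-2, was at 47 control and 59 CKO reads. This was a log2 ratio of -0.25 and 0.837 times the control level (95% Clopper-Pearson interval 0.561 to 1.26). All intervals given here are of this kind and cover counting error only. The interval of Zc3h12b includes no change and lies above a 2-fold decrease. By counting error and this scaling, a 2-fold loss of the target mRNA was thus not seen in whole kidney. A smaller difference was not resolved at this depth. The log2 ratio of Zc3h12b changed sign to 0.16 with equal library totals and to 0.42 with the values as deposited. It therefore does not check the labels of the libraries.

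Chemokines are small secreted proteins that direct the movement of leukocytes, and they are grouped as CC, CXC, CX3C and XC by the spacing of their first cysteines. They act on receptors that couple to inhibitory G proteins, while the atypical Ackr receptors bind and remove chemokines without that signal. In the kidney they are made by tubular epithelium, endothelium, fibroblasts and leukocytes, and CCL2 acting on CCR2 is known for bringing monocytes into injured tissue.

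Of the 44 members, 40 had at least 10 scaled reads in 1 library, 26 ligands and 14 receptors. Among these, 23 were at least 2-fold higher in the CKO library, where 13.4% of the 17469 genes that passed the same filter were. Another 2, Ccl28 and Cxcl13, were at least 2-fold lower, where 5.35% of all tested genes were, and Cxcl13 turned to a log2 ratio of 0.13 with the values as deposited. The remaining 15 differed by less than 2-fold. The filter itself bears on these counts, since 11 members passed only through the CKO library and had to differ upward, while Cxcl13, Ccl21b and Ccl27b passed only through the control library and had to differ downward. Without any filter, 24 of the 44 members were at least 2-fold higher, against 12.5% of all 20002 genes. Of the 29 members with at least 10 control reads 13 were, against 10.4% of such genes. The median log2 ratio was 1.10 for the ligands and 1.52 for the receptors that passed, and 0.022 for all tested genes. The filter bears on these too, and without it they were 0.86, 1.38 and 0. The counting interval lay wholly above 2-fold for 17 members, 12 ligands and 5 receptors, against 7.3% of tested genes. In whole-kidney RNA, fewer cells of a type and less RNA per cell cannot be told apart, nor can more cells and more RNA per cell.

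**Figure D1:**
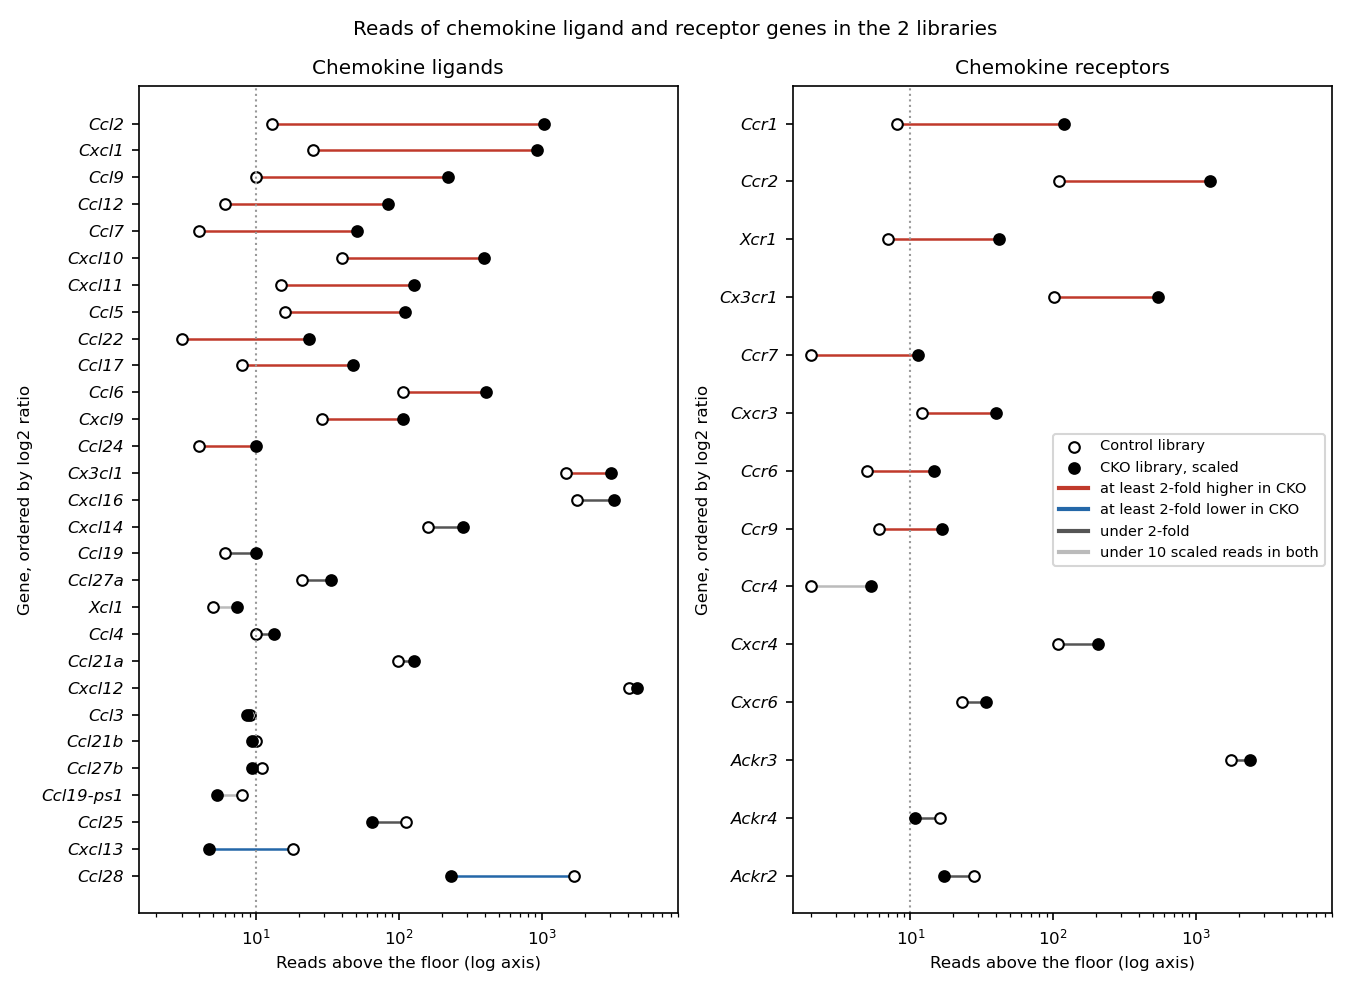
Reads above the floor in the control library (open circles) and scaled reads in the CKO library (filled circles) for the 29 ligand genes and 14 of the 15 receptor genes, on a log axis, ordered by log2 ratio. The dotted line marks 10 reads. Most red lines, for members at least 2-fold higher in the CKO library, start at low control reads, while Cxcl12, Cxcl16, Cx3cl1 and Ackr3 were high in both libraries.

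Promoter sequence was searched in every member with a window. RefSeq (GRCm38.p6) gave 41 windows for 34 of the 44 members, each reaching from upstream of a start to just past it. Both strands were searched for the NF-κB motif, for the core of the interferon-stimulated response element (ISRE), GAAANNGAA, and for the AP-1 motif, TGANTCA. The NF-κB motif was in 14.6% of the member windows and in 4.51% of all 32851 windows, the ISRE core in 14.6% and 8.56%, and the AP-1 motif in 19.5% and 7.81%. In the 17 windows of members at least 2-fold higher, the shares were 23.5%, 17.6% and 17.6%. A match describes letters and not a bound site. The raised members below were picked among those whose windows hold matches, which include Ccr2 with 1 ISRE core and Ccr6 with 2 NF-κB matches in 1 of its windows, and Ccl28 was picked as the member with the lowest log2 ratio. The windows of Ccl6, Ccl12, Ccl17, Ccl22, Cx3cl1, Cx3cr1, Ccr1, Ccr9, Cxcr3 and Xcr1, also at least 2-fold higher, hold no match. The stretches lie upstream of the start and are written 5′ to 3′ on the strand of the gene, with capitals marking every match to any of these motifs. Cxcl1 is from chr5:90891154-90891204, plus strand, and holds 2 overlapping NF-κB matches.
Cxcl1: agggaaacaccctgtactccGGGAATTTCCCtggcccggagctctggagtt
Cxcl10 is from chr5:92348937-92349122, minus strand, with the ISRE core first, then 2 NF-κB matches and an AP-1 match. Its neighbour Cxcl9 is from chr5:92328226-92328274, minus strand, with an ISRE core, and its window holds an AP-1 match past the start.
Cxcl10: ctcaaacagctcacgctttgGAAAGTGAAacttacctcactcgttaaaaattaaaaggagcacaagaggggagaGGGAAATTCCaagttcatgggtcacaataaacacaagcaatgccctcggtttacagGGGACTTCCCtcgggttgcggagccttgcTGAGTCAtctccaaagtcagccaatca
Cxcl9: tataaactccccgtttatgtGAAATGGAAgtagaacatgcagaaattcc
Ccl9 is from chr11:83578642-83578709, minus strand, with an AP-1 match followed by an NF-κB match. Ccl28, which was lower in the CKO library, is from chr13:119623719-119623818, plus strand. These 100 bases hold no match, but the searched window of Ccl28 has 1 AP-1 match at 20 bases past the start.
Ccl9: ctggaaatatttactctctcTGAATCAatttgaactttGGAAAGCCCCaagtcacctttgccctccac
Ccl28: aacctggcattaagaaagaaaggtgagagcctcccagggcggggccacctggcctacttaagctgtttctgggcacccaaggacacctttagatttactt

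The ligands of CCR2 and their receptor were all higher in the CKO library. Ccl2 (chr11:82035577-82037452), the main attractant of monocytes, was at 13 control and 1559 CKO reads, 79.9-fold higher after scaling (interval 46.6 to 150). It ranked 5 from the top by log2 ratio among the tested genes. Ccl12, a mouse chemokine close to Ccl2, was at 6 and 126 reads, 14-fold higher (6.26 to 38.9). Its neighbour Ccl7, a further attractant of monocytes, was at 4 and 76 reads, 12.7-fold higher (4.75 to 47.7). Each of these ligands was low in the control library, so the size of its fold is loose while its direction held under every setting tried. Ccr2, the receptor on inflammatory monocytes, was better covered with 110 control and 1890 CKO reads, 11.5-fold higher (9.45 to 14). Summed over Ccl2, Ccl7 and Ccl12, there were 23 and 1761 reads.

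The ligands Ccl3, Ccl4, Ccl5, Ccl6 and Ccl9 did not move as one. Ccl9, which acts on CCR1, was at 10 control and 330 CKO reads, 22-fold higher (11.8 to 46.3). Ccl5, or RANTES, an attractant of T cells and monocytes, was at 16 and 166 reads, 6.92-fold higher (4.14 to 12.4). Ccl6, a mouse chemokine made by myeloid cells, was at 107 and 608 reads, 3.79-fold higher (3.08 to 4.7). In contrast to these, Ccl3 and Ccl4, the macrophage inflammatory proteins, were close to the filter in both libraries. Ccl4 was at 10 and 20 reads (interval of the fold 0.596 to 3.19), and Ccl3 was under the filter at 9 and 13 reads (0.381 to 2.55). A 2-fold change in either direction was not detectable for Ccl3 at this depth. Ccr1, a receptor of monocytes and neutrophils, was at 8 and 179 reads, 14.9-fold higher (7.41 to 35.1). Ccl9 and Ccr1 were low in the control library, so the size of their folds is loose. With the values as deposited the log2 ratio of Ccl9 fell from 4.33 to 3.08 and that of Ccr1 from 3.74 to 2.42. Both left the counting interval.

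Cxcl1 (chr5:90891245-90893121), an attractant of neutrophils through CXCR2, was at 25 control and 1395 CKO reads, 37.2-fold higher (25.1 to 57.7). It was second to Ccl2 among the members by log2 ratio. The other CXCR2 ligands of the list, Cxcl2, Cxcl3 and Cxcl5, and the receptor gene Cxcr2 itself were not analysed here. The same holds for Ccl8, Ccl11, Ccl20 and Ackr1.

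The ligands of CXCR3, which are induced by interferon and attract activated T cells and NK cells, were each higher in the CKO library. Cxcl10 was at 40 control and 595 CKO reads, 9.92-fold higher (7.2 to 14). Its exons overlap those of Art3 on the opposite strand, and the strand setting of the counting is not stated, so reads of these genes cannot be told apart. Cxcl11, annotated by RefSeq as a transcribed pseudogene, was at 15 and 191 reads, 8.49-fold higher (5.02 to 15.5). Cxcl9 was at 29 and 160 reads, 3.68-fold higher (2.47 to 5.67). Among these ligands Cxcl9 moved least, and its interval lay below that of Cxcl10. The receptor gene Cxcr3 was at 12 and 60 reads, 3.33-fold higher (1.77 to 6.81).

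Cx3cl1 (chr8:94772180-94782427), or fractalkine, a membrane-bound chemokine of endothelium and epithelium, was at 1471 control and 4589 CKO reads. At 2.08-fold higher (1.96 to 2.21) it lay at the threshold. Its receptor gene Cx3cr1, a gene of resident macrophages and patrolling monocytes, moved further, from 102 to 811 reads or 5.3-fold (4.31 to 6.58). The exons of Cx3cr1 overlap an antisense gene, Gm33858. Here the receptor gene moved further than that of the ligand, whereas Ccl2 had moved further than Ccr2.

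The genes of CCR4 ligands, which are made by dendritic cells and macrophages, rested on few reads. Ccl22 was at 3 control and 35 CKO reads, a ratio of 7.78 (2.45 to 39.5). Ccl17 was at 8 and 71 reads, 5.92-fold higher (2.85 to 14.2). Ccr4, their receptor on T helper and regulatory T cells, was under the filter at 2 and 8 reads (0.532 to 25.8), so its change was not resolved. Xcr1, a receptor of cross-presenting dendritic cells, was at 7 and 63 reads, 6-fold higher (2.75 to 15.5), while its ligand gene Xcl1, which overlaps Gm20743 on the opposite strand, was under the filter at 5 and 11 reads.

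The calls of Ccr7, Ccr6, Ccr9 and Ccl24 rested on few reads, and each was lost with a pseudocount of 10 and also with the values as deposited. Ccr7, which guides dendritic cells and T cells to lymph nodes, was at 2 control and 17 CKO reads, a ratio of 5.67 (1.35 to 50.6). Ccr6, a receptor of Th17 cells and B cells, was at 5 and 22 reads, a ratio of 2.93 (1.08 to 9.92). Ccr9, a receptor of gut-homing T cells, was at 6 and 25 reads, a ratio of 2.78 (1.11 to 8.28). It overlaps Slc6a20a on the opposite strand and Gm17200 on its own. Ccl24, an eosinophil attractant, was at 4 and 15 reads, a ratio of 2.5 with an interval from 0.796 to 10.3 that includes no change. Its receptor gene Ccr3 was not analysed here.

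The ligands of CCR7 did not reach 2-fold under the main scaling, although each of their intervals overlaps that of Ccr7. Ccl21a, a chemokine of lymphatic vessels, was at 99 control and 191 CKO reads (1 to 1.66). Its near-identical copy Ccl21b was at 10 and 14 reads (0.386 to 2.35), and Ccl19 was at 6 and 15 (0.611 to 5.24). How reads were split between Ccl21a and Ccl21b, between Ccl27a and Ccl27b, and between Ccl19 and the pseudogene Ccl19-ps1 is uncertain, and Ccl19-ps1 was under the filter at 8 reads in both libraries. Ccl25, the ligand of CCR9, was at 112 and 98 reads, a log2 ratio of -0.77 that became 0.019 with the values as deposited. Its exons overlap Elavl1 on the opposite strand.

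The lower members were both ligands. Ccl28 (chr13:119623819-119654359), an epithelial chemokine of mucosal tissues that acts on CCR10 and CCR3, was at 1699 control and 348 CKO reads. Its level was 0.137 of the control (0.121 to 0.153), or 7.32-fold lower, and the log2 ratio of -2.87 placed it 46 from the bottom of the 17469 tested genes. The other ligands assigned to CCR10 were lower per transcript length in the control library, with 21.1 reads per kb for Ccl27a and 25.9 for Ccl27b against 454 for Ccl28, and did not pass 2-fold. Ccl27a was at 21 and 50 reads and overlaps Il11ra1 on the opposite strand, and Ccl27b was at 11 and 14. Cxcl13, which attracts B cells through CXCR5, was at 18 control and 7 CKO reads, 0.259 of the control (0.0915 to 0.651). The receptor genes Ccr10 and Cxcr5 were not analysed here.

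**Figure D2:**
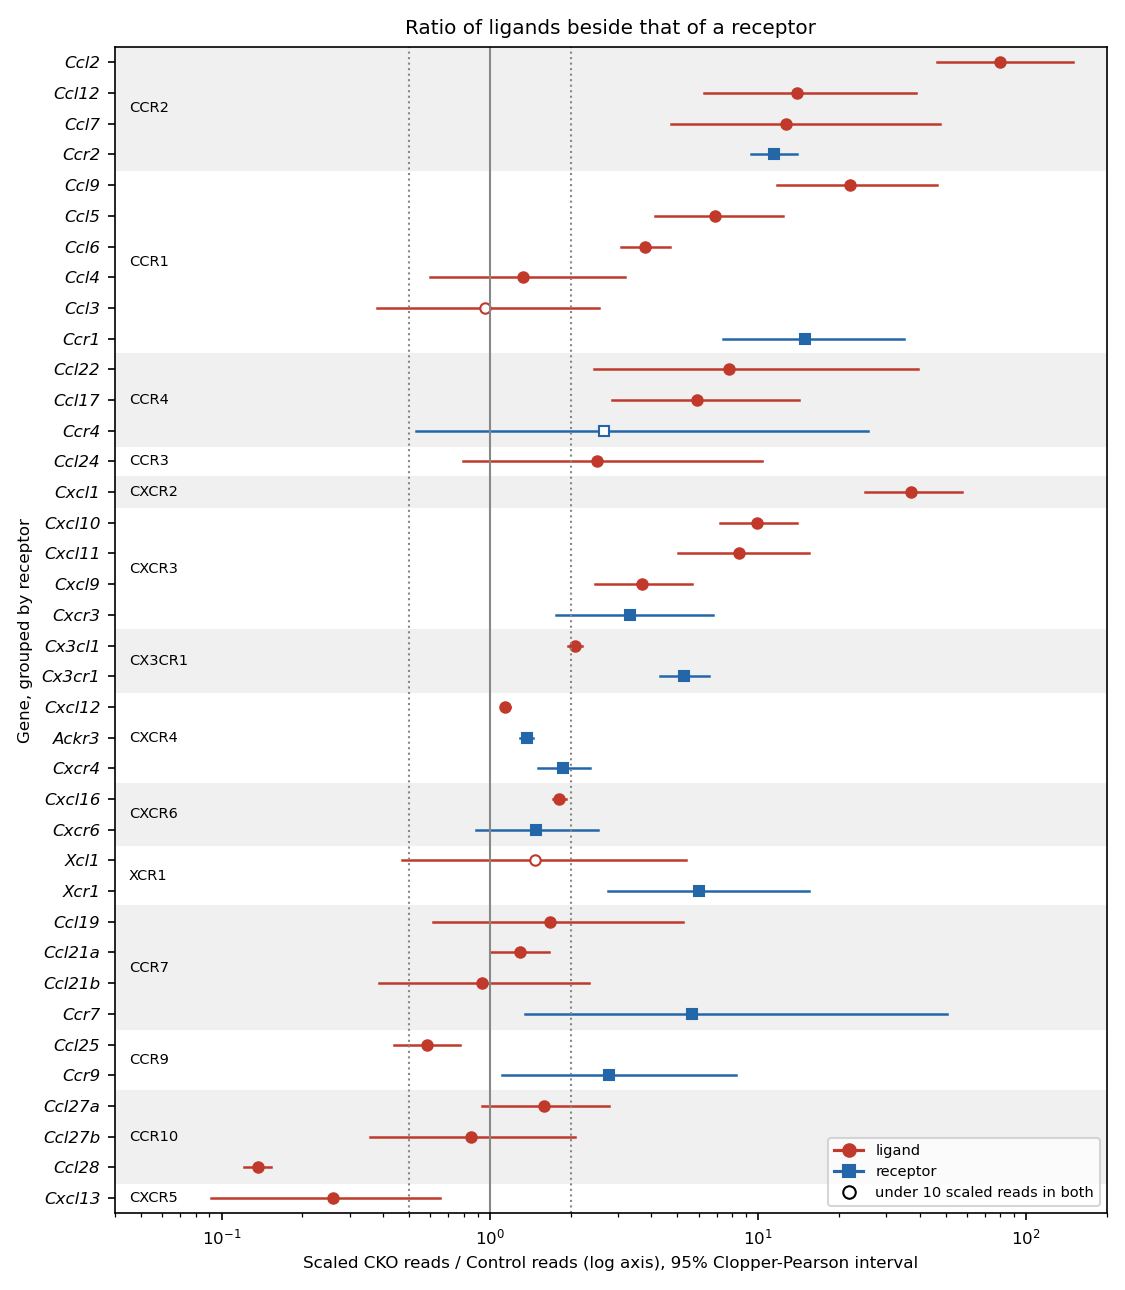
Ratio of scaled CKO reads to control reads on a log axis, with the 95% Clopper-Pearson interval for counting error, for ligands (circles) and receptors (squares) grouped by the receptor that each ligand binds. Dotted lines mark a 2-fold difference, and open symbols are genes under 10 scaled reads in both libraries. The intervals of Ccl2, Ccl7, Ccl12 and Ccr2 lie wholly above 2-fold, while that of Ccl28 lies wholly below a 2-fold decrease.

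The ligand and the receptor with the most reads differed by less than 2-fold under the main scaling. Cxcl12, which holds leukocytes and progenitor cells in tissue through CXCR4, had the most reads of any ligand, 4117 control and 7041 CKO reads, and was 1.14-fold higher (1.1 to 1.19). Ackr3, the atypical receptor that takes up CXCL12, had the most reads of any receptor, 1757 and 3598, and was 1.37-fold higher (1.29 to 1.45), but passed 2-fold with the values as deposited, at a log2 ratio of 1.03. Cxcr4, the signalling receptor of the same ligand, was at 109 and 308 reads, 1.88-fold higher (1.51 to 2.37). Within this group the ligand was the nearest to 1. Cxcl16, a membrane-bound chemokine and scavenger receptor, was at 1776 and 4833 reads, 1.81-fold higher (1.72 to 1.92), and overlaps Zmynd15 on the opposite strand. Its receptor gene Cxcr6 was at 23 and 51 reads (0.887 to 2.53). With equal library totals, Cxcl16, Cxcl14, Cxcr4, Ccl27a and Ccl19 passed 2-fold, so the call of these members as under 2-fold depended on the scaling. Cxcl14, an epithelial chemokine with no single receptor assigned here, was at 161 and 422 reads. The other atypical receptors were low, with 28 and 26 reads for Ackr2 and 16 in both libraries for Ackr4, and their log2 ratios of -0.66 and -0.54 changed sign with the values as deposited. Ackr4 overlaps Acad11 on the opposite strand.

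By kind, the 19 CC ligands summed to 2156 control and 3757 CKO reads, a ratio of 1.16 after scaling, and the 8 CXC ligands to 6181 and 14644, a ratio of 1.58. Over all 29 ligands there were 9813 and 23001 reads, a ratio of 1.56. Single genes weigh heavily in these sums, and Ccl28 alone held 1699 of the control reads of the CC ligands.

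Levels were compared between genes as reads per kb of the longest GENCODE M21 transcript, for the 27 ligands and 15 receptors with a length. In the control library Cxcl12 made up 25.6% of the summed ligand level, Cxcl16 23%, Ccl28 15.9% and Cx3cl1 15.5%. In the CKO library Cxcl16 led with 19.9%, followed by Ccl2 with 15.8%, Cx3cl1 with 15.4% and Cxcl12 with 13.9%. Ccl2 went from rank 18 to rank 2 among the ligands and Cxcl1 from rank 17 to rank 5, with shares of 0.468% and 8.3% for Cxcl1. Ccl28 went the other way, from rank 3 to rank 15 and a share of 1.04%. Among the receptors Ackr3 had the largest share in both libraries, 79.2% in the control library and 56.3% in CKO. Ccr2 went from 2.65% to 15.8%, from rank 4 to rank 2, while Cxcr4 was almost level at 8.34% and 8.18%. The scaling between libraries does not enter these shares.

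**Figure D3:**
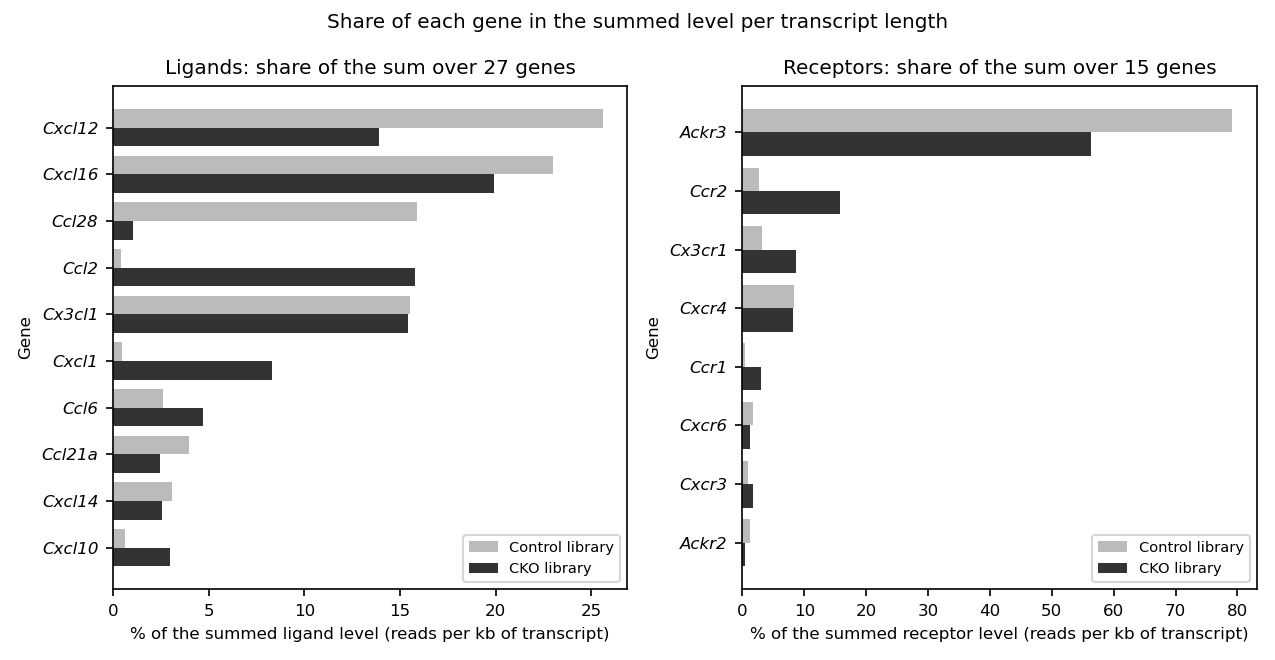
Share of single genes in the summed level of the ligands and of the receptors, in reads per kb of transcript, for the control library (grey bars) and the CKO library (dark bars). Genes with large shares are shown. Ccl28 drops from 15.9% to 1.04% of the ligand level while Ccl2 reaches 15.8%.

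Chemokine genes lie in clusters, and members within 1000000 bases of the next were read in their order. The 3 genes Ccl2, Ccl7 and Ccl12 on chromosome 11 were each at least 2-fold higher, with log2 ratios of 6.22, 3.37 and 3.60. In the next group of 5 on that chromosome, Ccl5, Ccl9 and Ccl6 were at 2.72, 4.33 and 1.91, and their neighbours Ccl3 and Ccl4 at -0.049 and 0.38. Genes past 2-fold and genes short of it thus lay side by side here, although the intervals of Ccl3 and Ccl4 reach past 2-fold. On chromosome 9 the receptor genes Ccr9, Xcr1, Ccr1 and Ccr2 were at least 2-fold higher, and Cxcr6 between Ccr9 and Xcr1 was at 0.54. The genes Cxcl9 and Cxcl10 on chromosome 5 were at 1.84 and 3.28, with Cxcl11 next to them also at least 2-fold higher, and Ccl22, Cx3cl1 and Ccl17 on chromosome 8 at 2.60, 1.06 and 2.43. The group of 6 on chromosome 4 holds the CCR7 and CCR10 ligands Ccl19, Ccl21a, Ccl21b, Ccl27a and Ccl27b with Ccl19-ps1. No gene of this group reached 2-fold under the main scaling, but every interval except that of Ccl21a reaches past 2-fold.

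**Figure D4:**
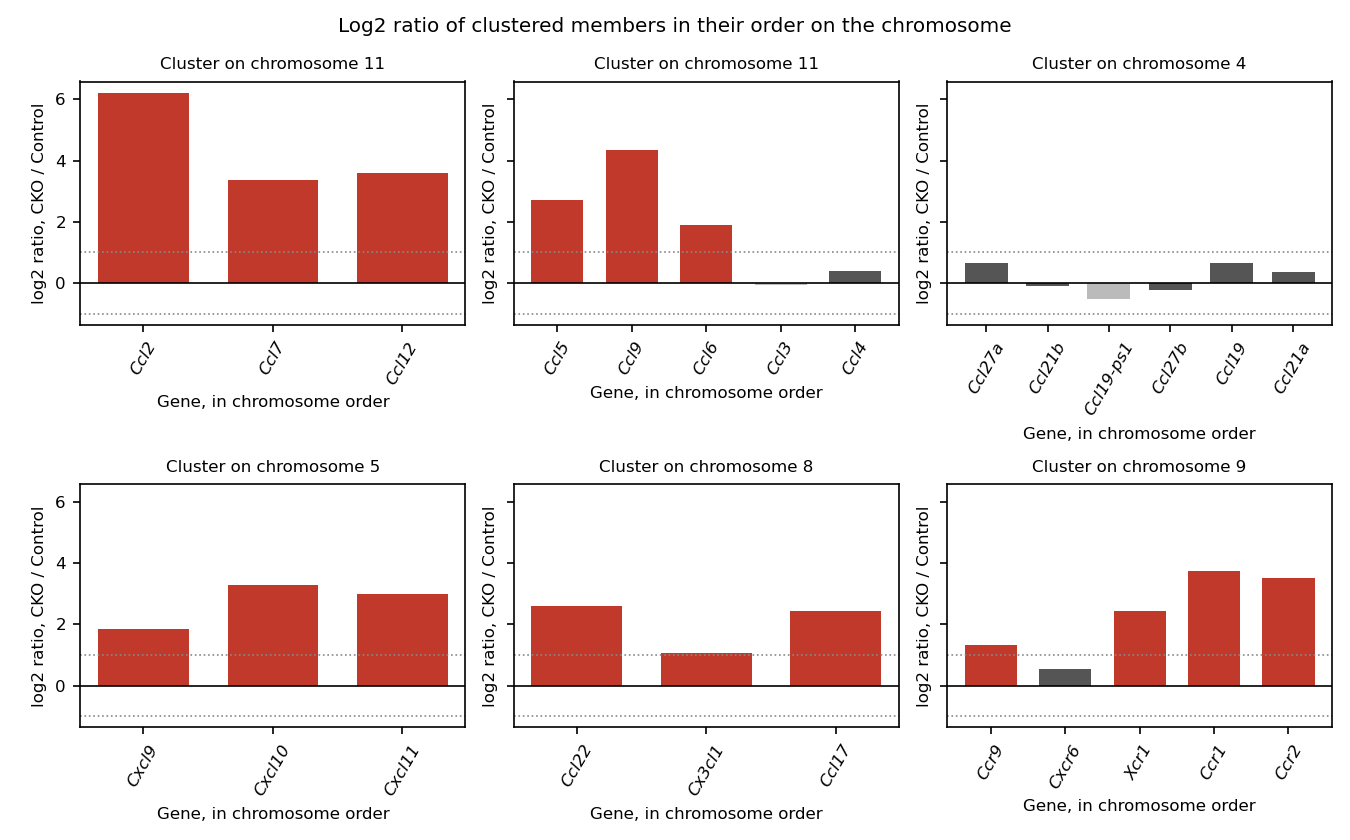
Log2 ratio of CKO to control for the members that have another member nearby, in their order along the chromosome and not to distance. Red bars are at least 2-fold higher, dark grey bars under 2-fold and light grey bars under 10 scaled reads in both libraries, and dotted lines mark 2-fold. The clusters of Ccl2, of Cxcl10 and of Cx3cl1 are at least 2-fold higher throughout. The log2 ratios of the cluster on chromosome 4 lie between -0.51 and 0.65, mostly on few reads.

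Genes that carry the signal of chemokine receptors were read from a list of 36, and all 36 passed the filter. At the 2-fold threshold 16 were higher and 0 lower, where 13.4% and 5.35% of all tested genes were, and the median log2 ratio was 0.85. Rgs1, Rgs16 and Rgs18 passed the filter only through the CKO library and had to differ upward. The highest was Rgs16, a regulator that ends G protein signals, at 7 control and 234 CKO reads and a log2 ratio of 4.29. The lowest was the kinase gene Ptk2b, at 2304 and 2984 reads and a log2 ratio of -0.21, which turned to 0.21 under equal totals and to 0.38 in the values as deposited. Gnb1, a subunit shared by many G proteins, had the most reads over both libraries, 5320 and 9725, and a log2 ratio of 0.29. The G protein genes Gnai2 and Gnai3, which are used in most tissues, were at 0.25 and 0.19. In contrast, Rac2, Dock2 and Pik3cg, which act in leukocyte migration, were at 2.09, 2.18 and 2.28.

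Markers of the cells that send or receive chemokines were read beside them, and their counts past 2-fold stand against 13.4% higher and 5.35% lower among all tested genes. Of the 11 macrophage and monocyte markers, 11 passed the filter and 9 were at least 2-fold higher, and they summed to 4193 control and 27830 CKO reads, 4.42-fold after scaling. Lyz2 had the most reads over both libraries and the highest log2 ratio, 3.66, with 518 and 9836 reads. The lowest was Ly6c2, at 161 and 302 reads and 0.32. Csf1r also stayed under 2-fold, at 2244 and 4803 reads and 0.51. The other 9 moved with Ccr2, Ccr1 and Cx3cr1, which monocytes and macrophages are known to express. The 5 dendritic cell markers summed to 461 and 1508 reads, and 4 were at least 2-fold higher, from Itgax at 2.57 down to Zbtb46 at 0.35, which also had the most reads, 345 and 660. Of the 7 T cell markers, 5 were analysed and 5 were at least 2-fold higher, with sums of 72 and 427 reads. Cd3g was the highest at 2.22 and Cd4 the lowest at 1.70, and Lck had the most reads, 28 and 160. The filter bears on these counts as well. The T cell markers Cd3e, at 6 and 33 reads, and Cd8a, at 8 and 52, passed only through the CKO library. The same holds for the dendritic cell marker Flt3, at 8 and 78 reads, so each of these had to differ upward. The markers Cd3d and Cd8b1 were not analysed here.

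The remaining leukocyte markers were few and low. Of 9 neutrophil markers 4 were analysed, with sums of 58 and 267 reads, and 2 were at least 2-fold higher. Csf3r had the most reads, 22 and 177, and the highest log2 ratio, 2.37. Ltf had the lowest, -1.58, which turned to 0.19 with the values as deposited. Ltf passed the filter only through the control library and had to differ downward, while S100a8 passed only through the CKO library and had to differ upward. The defining markers Ly6g, Retnlg, Mpo, Elane and Camp were not analysed here. Of 5 NK cell markers 4 were analysed, with sums of 48 and 73 reads. Prf1 was the highest at 1.06, the only one past 2-fold, and had the most reads over both libraries, 10 and 33. Prf1 fell under 2-fold with a pseudocount of 10 (0.68), the floor 5 reads lower (0.77) and the values as deposited (0.90). Gzma, which passed the filter only through the control library, was the lowest at -0.88, which changed sign with the values as deposited. The only B cell marker analysed of 5 was Cd79b, at 23 and 40 reads, and the only platelet marker of 3 was Itga2b, at 165 reads in both libraries. Of 3 eosinophil markers 0 were analysed. No marker in these lists was at 0 reads, but subtracting the floor leaves every gene at least 1 read, so absence cannot be read from these values.

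Markers of the kidney's own cells differed by type, and the shares of all tested genes given above apply to them too. The 4 endothelial markers summed to 7231 and 9386 reads and 0 passed 2-fold, from Kdr at -0.67, which had the most reads over both libraries, to Emcn at 0.14, and their median of -0.11 turned to 0.31 with equal totals. Of 4 lymphatic endothelial markers 3 were analysed, with 721 and 2010 reads in sum, from Flt4 at 0.42, which again had the most over both, to Pdpn at 1.86. Of 4 fibroblast markers 3 were at least 2-fold higher, with sums of 4060 and 15099 reads. Col1a1 was the highest at 2.65 and Pdgfrb the lowest at 0.48, and Dcn had the most reads over both libraries, 1291 and 6232. The 7 proximal tubule markers summed to 1342394 and 420011 reads, and 2 were at least 2-fold lower under the main scaling, Kap and Slc34a1. Slc34a1, with 147064 and 98124 reads and a log2 ratio of -1.17, was under 2-fold without scaling, so its call depends on the scaling. The median over the 7 markers was -0.62, against -0.20 under equal totals and -0.035 in the deposited values. Kap had the most reads and the lowest log2 ratio, -3.83, with 987520 and 104163 reads, and Slc5a12 was the highest at 0.41. By these markers both libraries held RNA of kidney tubules, as labelled. Of the 7 markers of other nephron segments 0 passed 2-fold, with sums of 144240 and 268578 reads. Aqp2 was the highest at 0.79, but reached 1.21 under equal totals and 1.37 in the deposited values. Umod had the most reads and reached 1.05 in the deposited values, so the count of 0 depends on the scaling. Most macrophage, T cell, dendritic cell and fibroblast markers moved up with the chemokine genes. Under the main scaling, 6 of the 7 proximal tubule markers had log2 ratios below 0. Cubn (19097 and 22134 reads) and Aqp1 (38399 and 41446) were higher in the CKO library without scaling, so this count depends on the scaling. The part of these cell types in the result was not tested.

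**Figure D5:**
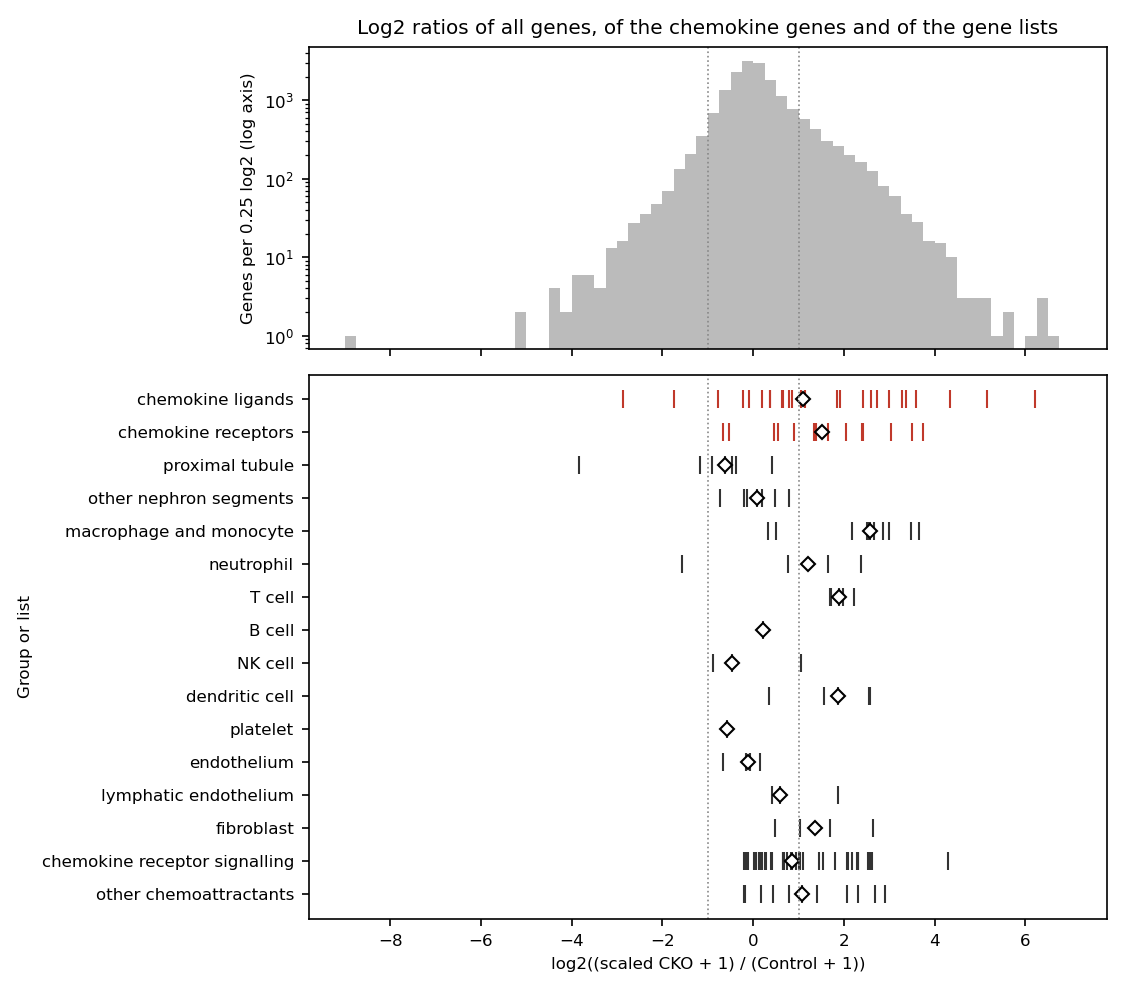
Log2 ratios of the 17469 tested genes as a histogram with a log axis (top), and of the single genes of each group or list as vertical ticks, with the median as a diamond (bottom). Dotted lines mark 2-fold. The ligands reach from -2.87 to 6.22, and the macrophage and monocyte markers have the highest median of the lists, 2.58.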

How the data were processed

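The deposited values were treated as a score, whole numbers that the authors call normalized counts. The authors aligned stranded poly(A) libraries with STAR 2.7.3a to mm10, counted with HTSeq and normalized with DESeq2. The lowest values were 35 and 51, so the minimum less 1 was subtracted from each column. That this leaves reads is an inference, and the counting intervals depend on it. CKO values were scaled by the median gene ratio, log2((CKO + 1)/(control + 1)) was taken, genes under 10 scaled reads in both libraries were dropped, and 2-fold was called. No test between groups was possible. The 95% Clopper-Pearson interval came from the share of CKO reads among the reads of both libraries. For genes with 1 to 3 reads the ratio with its interval is given, where the plan had a bound. The rule for named genes took each member past 2-fold, the ligand and receptor with the most reads, the receptors of named ligands, and the highest, the lowest and the most abundant gene of each list. Some genes that the rule covers are not reported here. Other names were chosen after their values were seen. The members and lists were chosen with earlier results of these data known. Lists covered receptor signalling, other chemoattractants and cell type markers. Alternatives were other pseudocounts, scalings, floors, filters and thresholds, and the values as deposited. Positions came from RefSeq for 44 members, lengths and exon overlaps from GENCODE M21 (GRCm38). The steps were tested on simulated data. Python 3.11.15, pandas 2.3.3, scipy 1.17.1 and matplotlib 3.10.9 were used.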

Additional observations from a re-analysis of the deposited data

How the results depend on the processing

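Of the 23 members at least 2-fold higher, 19 kept that call under every setting that left the filter and threshold in place or removed the filter. Ccl24, Ccr6, Ccr7 and Ccr9 did not. With at least 50 scaled reads in 1 library, 23 members were kept and 15 were higher, against 11.2% of the genes kept. Of these 23, 1 was lower, against 4.29%. With a pseudocount of 10, 1 of 40 members was lower, against 3.73% of the genes kept. With the values as deposited it was 1 of 40, against 0.75%. At 4-fold 1 of 40 was lower, against 0.95%, and at 1.5-fold 4 of 40, against 13.9%. The ligand median ranged from 0.83 with the floor 5 reads lower to 1.91 with at least 50 reads, and was 0.86 without a filter, 1.47 with equal totals and 1.86 with the floor at the column minimum. The receptor median ranged from 0.84 with a pseudocount of 10 to 2.72 with at least 50 reads, and was 0.97 with the floor 5 reads lower and 1.92 with equal totals. The cause was not tested. Cxcl13 reversed to 0.13 and the neutrophil marker Ltf to 0.19 with the values as deposited, where the constant of each column remains. Over 44 members and 7 settings, 270 of 308 log2 ratios stayed within the counting interval of the main value, 37 left it with no change of a called direction, and 1 reversed. Equal totals moved the median of all tested genes to 0.44, and the values as deposited moved it to 0.59. Relative to that, the member median was 1.29 and 0.66, against 1.34 in the main setting. Among all tested genes, 3870 were then higher and 437 lower with equal totals, and 3574 and 131 with the values as deposited, against 2334 and 934. No paired analysis was possible because 1 library stood for each group. Depth limits the members with few reads: 18 had 10 or fewer control reads, and 11 of the members called higher are among them.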

Other observations

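Other attractants of leukocytes, among them 2 CXC chemokines whose symbols the rule does not cover, were read as well. Of a list of 14 such ligands and receptors, 12 were analysed, 11 passed the filter, and 6 passed 2-fold upward, against 13.4% of tested genes. Their median log2 ratio was 1.07. The highest was Ltb4r1, the leukotriene B4 receptor gene, at 2 control and 32 CKO reads, 10.7-fold higher with an interval from 2.72 to 91.9. Ltb4r1 passed the filter only through the CKO library and had to differ upward. Its log2 ratio of 2.90 fell to 1.38 with a pseudocount of 10 and to 1.17 with the values as deposited. Ptafr, the receptor of platelet-activating factor, was at 20 and 201 reads, and the complement receptor genes C3ar1 and C5ar1 were at 62 and 463 and at 10 and 68 reads. Mif had the most reads of the list, 4497 and 5855, and the lowest log2 ratio of those that passed, -0.20, which turned to 0.21 with equal totals and to 0.38 with the values as deposited. Rarres2, the gene of the chemoattractant chemerin, was at -0.17. The receptor genes S1pr1 and Ccrl2 were also under 2-fold, at 0.17 and 0.44, and Cklf, a ligand gene, passed it at 1.07. Pf4, the platelet chemokine CXCL4, was at 15 and 40 reads, and Ppbp, at 8 and 10, was under the filter. Fpr1 and Fpr2 were not analysed here.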
